A study of Mus musculus with 20 samples.

Results

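Dual checkpoint blockade was compared with controls in SCCVII tumors, a mouse head and neck squamous cell carcinoma line grown under the skin of the flank in C3H/HeOuJ mice. The comparison rests on 4 of the 20 bulk RNA-seq libraries in the series, namely the 2 libraries labelled anti-PD-1 + anti-CTLA-4 and the 2 labelled control, and the members were taken from the treatment labels alone. The libraries of each group are called A and B. The dual-treated mice received both antibodies by repeated intraperitoneal injection. The label of the other group says only control. The paper gives saline injection for the control of its treatment experiment, but its methods also name isotype antibodies and its CD8 depletion experiment names IgG. Which of these the 2 control libraries received is not said in the labels. The groups given anti-PD-1 alone and anti-CTLA-4 alone, with 2 libraries each, were used only to place the dual-treated tumors against the single agents. None of these 4 groups received APG-157, the botanical drug given to other groups of the series, and all 4 carried the same transplanted tumor line in the same inbred strain. The animals' ages were not given in the sources used here.

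PD-1 is a receptor that activated T cells display, and its engagement by the ligands PD-L1 and PD-L2 dampens signaling from the T cell receptor. CTLA-4 competes with the costimulatory receptor CD28 for the ligands CD80 and CD86, and it is abundant on regulatory T cells. T cells and natural killer cells that respond to a tumor release interferon gamma, which acts on nearby cells of many kinds and switches on genes for antigen presentation, for T cell attracting chemokines and for PD-L1 itself.

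The libraries held 43920525 to 72081922 estimated gene counts, and 19567 of 54309 genes passed the filter on low counts and were tested. Levels are given as CPM, the counts of a gene scaled to 1000000 counts per library, and a fold change is always dual-treated over control on the log2 scale unless another comparison is named. The tumor label was checked against marker genes. The simple epithelial keratins Krt8 and Krt18 were abundant, with 714 and 599 CPM of Krt8 in dual-treated libraries A and B, against 849 and 909 CPM in control libraries A and B. Krt5, Krt14 and Epcam, which mark stratified or adherent epithelium, were at 0.283 CPM or less in all 4 libraries. Of these markers only the simple epithelial keratins were abundant, and the markers of stratified epithelium did not bear out the squamous part of the label. The macrophage marker Adgre1 was at 205 and 199.9 CPM in dual-treated tumors and at 249 and 183 CPM in control tumors, and the pan-leukocyte gene Ptprc was at 214 and 244 CPM against 163 and 115 CPM. These are whole tumors, in which more cells of a type and more RNA per cell cannot be told apart. Whether A and B are separate tumors is not said in the labels, and the p-values therefore measure only the spread between these libraries. Library B of the anti-CTLA-4 group stood apart from its partner, with a mean log2 level of the skeletal muscle genes of 5.64 against -0.61 in library A, and with the T cell genes at 0.37 against 3.38. In the 4 compared libraries the muscle level was 2.03 and 1.13 in dual-treated tumors and 0.94 and 1.79 in control tumors, so the groups overlapped.

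The first question was which genes differed between dual-treated and control tumors. In the edgeR quasi-likelihood fit to all 20 libraries, 0 genes (0%) passed an adjusted p of 0.05 together with a log2 fold change of 2 in size, and the lowest adjusted p was 0.355. Without adjustment, 826 genes (4.22%) were higher and 356 (1.82%) were lower in dual-treated tumors at p under 0.05. Both dual-treated libraries lay above both control libraries for 18.8% of all genes and below both for 20.3%. DESeq2 on the same 20 libraries called 34 genes higher (0.174%) and 1 gene lower (0.00511%). edgeR fitted to the 4 compared libraries alone called 162 of 17213 genes higher (0.941%) and 6 lower (0.0349%). The number of calls therefore depended on the tool and on the libraries fitted, and the 4-library fit also differed in the genes kept and in the scaling factors. The biological coefficient of variation was 20.8% between the dual-treated libraries and 23.5% between the control libraries, while it was 38.7% over the series. Among the other groups it ranged from 4.25% (APG-157 + anti-CTLA-4) to 68.2%. When edgeR was fitted without that low-spread pair, the lowest adjusted p against control was 0.931. At an unadjusted p under 0.05, 703 genes were then higher and 256 lower in dual-treated tumors. In what follows, "called in the 4-library fit" refers to the edgeR fit to these libraries alone, which left 2 residual degrees of freedom. No gene passed the edgeR fit to all 20 libraries in the comparison with control. Fold changes and their SE are from that 20-library edgeR fit unless a library is left out. This also holds where an adjusted p of another fit is printed beside them, so the SE does not belong to that p. The SE is the size of the log2 fold change divided by the square root of its F statistic.

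The calls of the 4-library fit lay mostly in one direction, with 162 genes higher (0.941%) and 6 lower (0.0349%). Genes were also described in lists, which were chosen with earlier results of these data known. The median log2 fold change of all genes was -0.04. The medians were 2.76 for cytotoxic effector genes, 2.37 for T cell genes, 2.37 for interferon gamma response genes and 2.21 for checkpoint and exhaustion genes. The median was 0.12 for B cell genes. It was -0.03 for neutrophil genes, but 1.60 without control library B. It was -0.21 for proliferation genes and -0.25 for collagen and matrix genes, the last being 0.013 without dual-treated library B and -0.060 without control library A.

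**Figure D1:**
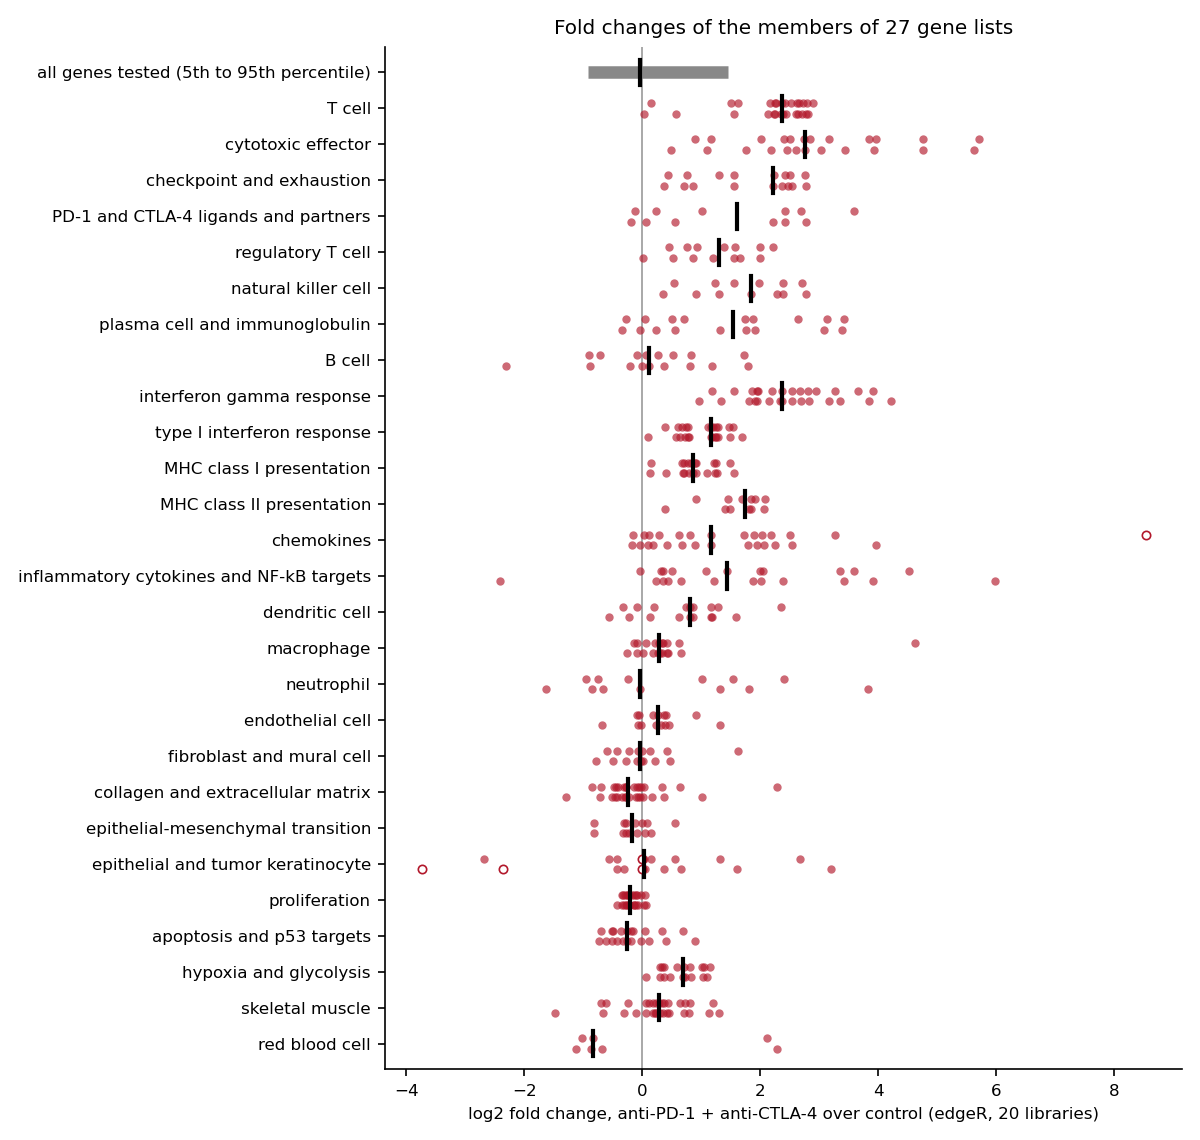
Log2 fold change, dual-treated over control, of each tested member of the gene lists (1 point per gene) from the edgeR fit to 20 libraries, with the median of each list as a black bar and the 5th to 95th percentile of all genes in grey. Open points are members with no count in 1 of the groups, whose fitted value is not a bound. The T cell, cytotoxic and interferon gamma lists lie to the right with medians of 2.37, 2.76 and 2.37, while the collagen and proliferation lists lie at -0.25 and -0.21.

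Interferon gamma response genes were higher in dual-treated tumors. All 29 tested members had both dual-treated libraries above both control libraries, against 18.8% of all genes, and 26 of 29 had an unadjusted p under 0.05 in the edgeR fit, against 4.22%. The mean log2 level of the list was 6.60 and 7.11 in dual-treated libraries A and B and 4.46 and 4.39 in control libraries A and B. In the 4-library fit 18 of 29 were called higher, against 0.941% of all genes, and DESeq2 on 20 libraries called 2, against 0.174%. Dual-treated libraries ranked 3 (A) and 1 (B) of the 20 libraries on this list.

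The list holds the chemokines that draw T cells through the receptor CXCR3. Cxcl9 had 498 and 863 CPM in dual-treated tumors, against 77.7 and 63.7 CPM in control tumors. The log2 fold change was 3.27 ± 1.32 (SE) in the edgeR fit to 20 libraries. Its adjusted p was 0.0073 in the separate 4-library edgeR fit and 0.221 in DESeq2 on 20 libraries. Cxcl10 had 107 and 181 CPM in dual-treated tumors and 32.8 and 41.7 CPM in control tumors, and Cxcl11 had 31.4 and 47.6 CPM against 6.98 and 6.63 CPM. The groups did not overlap for any of the 3 chemokines, and Cxcl11 also passed DESeq2 on 20 libraries at an adjusted p of 0.0434.

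Interferon-induced GTPases, which attack the vacuoles of intracellular pathogens, and metabolic enzymes of the response showed the same order of groups. Igtp had 334 and 542 CPM in dual-treated tumors, against 58.6 and 66.7 CPM in control tumors (log2 fold change 2.81 ± 1.00, SE). Gbp5 had 104 and 142 CPM in dual-treated tumors, against 24.6 and 17.8 CPM in control tumors. Ido1, the enzyme that degrades tryptophan, was scarce at 1.51 and 2.41 CPM in dual-treated tumors but lower still in control tumors, at 0.0898 and 0.117 CPM. Nos2, the inducible nitric oxide synthase of activated macrophages, had 71.0 and 28.7 CPM against 4.13 and 2.47 CPM, a log2 fold change of 3.92 ± 0.83 (SE) with an adjusted p of 1.4e-04 in DESeq2 on 20 libraries. The transcription factor gene Irf1 had a smaller difference on a higher level, with 273 and 386 CPM in dual-treated tumors and 138 and 153 CPM in control tumors. The feedback inhibitor gene Socs1 had 13.5 and 26.4 CPM against 5.62 and 7.95 CPM. Reads of neighboring Gbp and Tgtp paralogs can be shared, so the levels of single family members are less certain than their sum.

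The promoters of 4 of these genes are shown because they hold the short motifs through which interferon signals reach DNA. The motifs are the gamma-activated sequence (GAS), searched here as TTCNNNGAA (N, any base), and the interferon-stimulated response element (ISRE), which IRF proteins bind, searched as TTTC, any 2 bases, TTTC, or on the other strand as GAAA, any 2 bases, GAAA. GAS as written reads the same on both strands. The windows run from 250 bases before to 50 bases after the first annotated start in RefSeq on GRCm38.p6, a C57BL/6J reference and not the C3H strain of these mice, and are given in the direction of the gene. They are chr11:53769764-53770063 (plus strand) for Irf1, chr3:142496684-142496983 (plus strand) for Gbp5, chr11:58199306-58199605 (plus strand) for Igtp and chr5:92348840-92349139 (minus strand) for Cxcl10. Capitals mark the matches to either motif.
Irf1: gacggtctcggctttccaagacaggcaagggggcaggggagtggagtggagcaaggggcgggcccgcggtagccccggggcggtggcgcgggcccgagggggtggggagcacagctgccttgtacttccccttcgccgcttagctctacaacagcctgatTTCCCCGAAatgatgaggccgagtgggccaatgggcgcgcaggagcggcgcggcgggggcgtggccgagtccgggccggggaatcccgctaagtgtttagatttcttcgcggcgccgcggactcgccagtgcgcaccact
Gbp5: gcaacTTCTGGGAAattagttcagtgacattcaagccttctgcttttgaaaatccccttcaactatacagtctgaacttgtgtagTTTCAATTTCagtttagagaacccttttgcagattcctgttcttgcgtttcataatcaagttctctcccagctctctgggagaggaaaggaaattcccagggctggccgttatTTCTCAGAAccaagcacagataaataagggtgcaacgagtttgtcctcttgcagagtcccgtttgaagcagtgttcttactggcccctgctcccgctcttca
Igtp: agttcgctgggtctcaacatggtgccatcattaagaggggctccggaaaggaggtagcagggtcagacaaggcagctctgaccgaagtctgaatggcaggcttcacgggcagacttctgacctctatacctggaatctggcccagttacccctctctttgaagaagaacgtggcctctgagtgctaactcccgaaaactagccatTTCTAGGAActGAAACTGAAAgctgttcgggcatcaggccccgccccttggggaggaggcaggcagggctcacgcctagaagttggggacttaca
Cxcl10: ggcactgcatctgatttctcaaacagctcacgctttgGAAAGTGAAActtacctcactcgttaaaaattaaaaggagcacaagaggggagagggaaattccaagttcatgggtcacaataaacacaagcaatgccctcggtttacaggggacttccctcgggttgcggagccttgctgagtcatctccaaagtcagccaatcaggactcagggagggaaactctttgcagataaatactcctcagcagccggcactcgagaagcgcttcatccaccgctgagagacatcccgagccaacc
Irf1 held 1 GAS match and no ISRE match, Gbp5 held 1 ISRE and 2 GAS matches, Igtp held 1 of each within a few bases of each other, and Cxcl10 held 1 ISRE match and no GAS match.

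Of the 29 tested interferon gamma response genes, 17 had a promoter in the RefSeq table. An ISRE match was present in 11 of the 17 (64.7%), against 1079 of 27025 genes with a promoter (3.99%), and a GAS match in 9 of 17 (52.9%), against 2582 of 27025 (9.55%). Among type I interferon response genes 11 of 18 (61.1%) held an ISRE match and 3 of 18 (16.7%) a GAS match. Cytotoxic effector genes held an ISRE match in 3 of 19 (15.8%) and a GAS match in 4 of 19 (21.1%). T cell genes held an ISRE match in 0 of 16 and a GAS match in 2 of 16 (12.5%), and MHC class I genes held them in 5 of 18 (27.8%) and 1 of 18 (5.56%). A match is a description of letters in the window, and binding was not measured.

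Genes of the type I interferon response differed less. All 25 tested members had positive fold changes with a median of 1.16. Of these, 24 of 25 lay above both control libraries, against 18.8% of all genes. An unadjusted p under 0.05 in the edgeR fit was found for 16, against 4.22%. The 4-library fit, where a log2 fold change of 2 was required, called 0. Mx1, an antiviral GTPase, had 11.9 and 13.8 CPM in dual-treated tumors against 4.99 and 5.62 CPM in control tumors. Irf7 had 76.2 and 90.2 CPM against 32.3 and 42.0 CPM. The largest fold change of the list was 1.68, below the median of the interferon gamma list.

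Antigen presentation genes were higher in both classes. All 21 tested genes of MHC class I presentation had both dual-treated libraries above both control libraries, against 18.8% of all genes, with a median log2 fold change of 0.86. Tap1, a subunit of the peptide transporter into the endoplasmic reticulum, had 264 and 318 CPM in dual-treated tumors and 103 and 95.1 CPM in control tumors. B2m, the invariant light chain, had 4097 and 4541 CPM against 2476 and 2830 CPM. For MHC class II, 11 of 12 members lay above both control libraries, against 18.8% of all genes, and the median was 1.75. H2-Ab1 had 1020 and 1203 CPM in dual-treated tumors and 217 and 315 CPM in control tumors, and Cd74, the invariant chain that escorts class II molecules, had 5046 and 5648 CPM against 1222 and 1835 CPM. H2-Ab1 and H2-Eb1 were the 2 class II genes called in the 4-library fit. DESeq2 on 20 libraries called 0 genes of either class. With all 20 libraries fitted, 2 of 12 class II genes had an unadjusted p under 0.05, against 4.22% of all genes. The other groups of that fit ranged widely on this list (3.60 to 7.20 on the mean log2 scale).

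**Figure D2:**
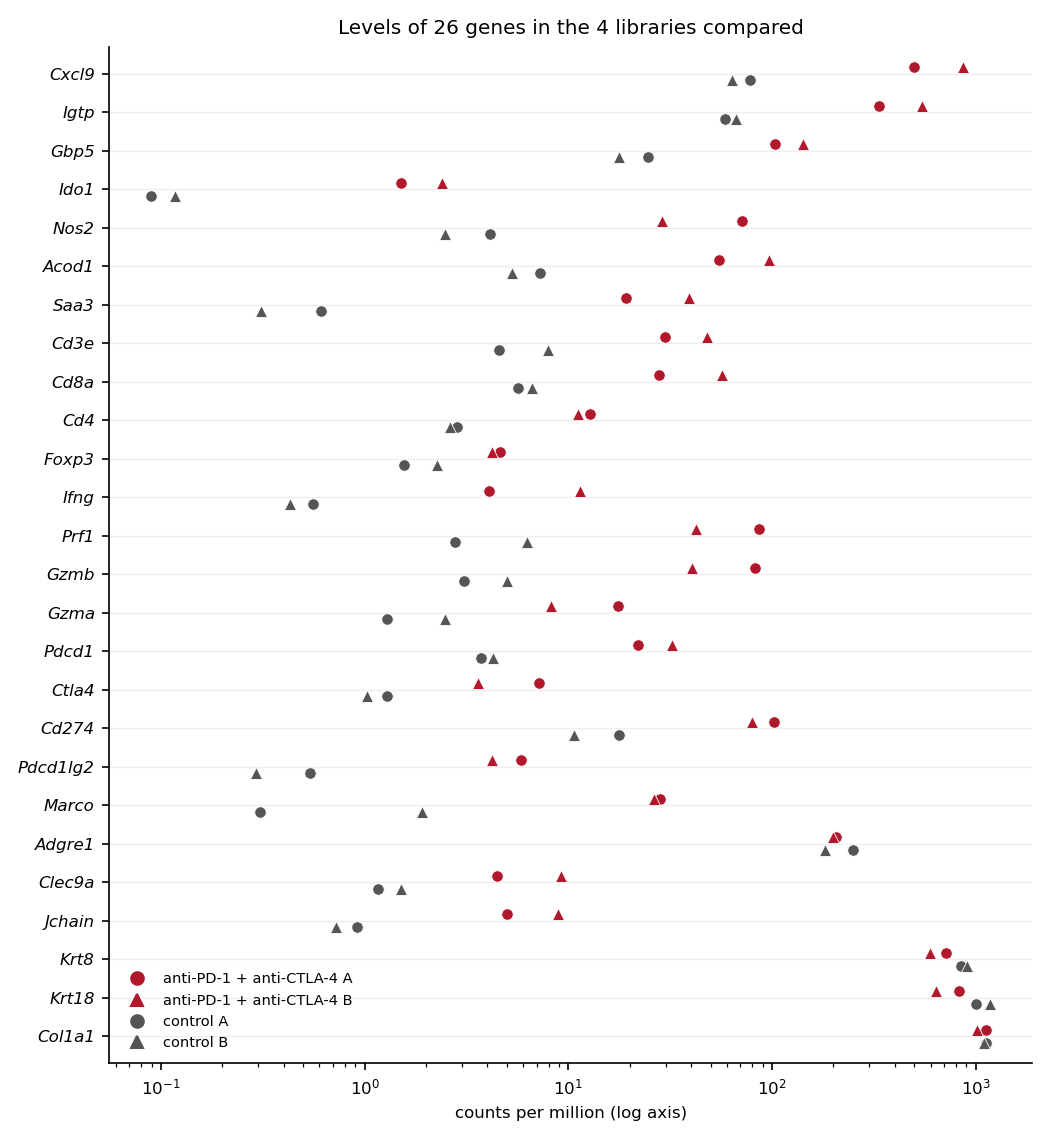
Level in CPM on a log axis of selected genes in the 2 dual-treated libraries (red, upper of each pair of rows) and the 2 control libraries (grey, lower), with replicate A as circles and B as triangles. Cxcl9 sits at 498 and 863 CPM in dual-treated tumors and at 77.7 and 63.7 CPM in control tumors, whereas the points of Adgre1 and Col1a1 overlap between groups.

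T cell genes were higher in dual-treated tumors as a block. All 28 tested members had positive fold changes, and 27 of 28 lay above both control libraries, against 18.8% of all genes. An unadjusted p under 0.05 in the edgeR fit was found for 21, against 4.22%. The 4-library fit called 20 higher, against 0.941%, while DESeq2 on 20 libraries called 0. The mean log2 level was 3.50 and 3.82 in dual-treated libraries A and B, which ranked second and first of the 20 libraries, and 1.37 and 1.74 in control libraries A and B. Cd3e, a signaling chain of the T cell receptor, had 29.7 and 48.1 CPM in dual-treated tumors, against 4.56 and 7.91 CPM in control tumors (log2 fold change 2.64 ± 1.21, SE). The receptor adapter gene Skap1 had 8.04 and 10.1 CPM against 1.33 and 2.22 CPM. Cd247, the zeta chain, had 8.21 and 12.8 CPM against 1.24 and 2.10 CPM.

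Markers of both major T cell lineages were higher. Cd8a, which marks killer T cells, had 28.0 and 56.6 CPM in dual-treated tumors and 5.66 and 6.67 CPM in control tumors (log2 fold change 2.78 ± 1.30, SE). Cd8b1 had 11.8 and 25.9 CPM against 2.30 and 3.11 CPM. Cd4, which marks helper T cells and is also carried by some myeloid cells, had 12.8 and 11.2 CPM against 2.85 and 2.63 CPM (log2 fold change 2.13 ± 1.01, SE). All 3 were called in the 4-library edgeR fit, at an adjusted p of 0.0147 for Cd8a, 0.0211 for Cd8b1 and 0.0103 for Cd4. In DESeq2 on 20 libraries the adjusted p was 0.435 for Cd8a, 0.221 for Cd8b1 and 0.400 for Cd4. The ratio of Cd8a to Cd4 was 2.20 and 5.06 in dual-treated libraries and 1.98 and 2.54 in control libraries, so the balance of the lineages overlapped between groups.

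Regulatory T cell genes were also higher, but by less. The list had a median log2 fold change of 1.30, with 11 of 14 members above both control libraries, against 18.8% of all genes. An unadjusted p under 0.05 in the edgeR fit was found for 7 of 14, against 4.22%. The 4-library fit called 0. Foxp3, the master regulator of these cells, had 4.60 and 4.23 CPM in dual-treated tumors, against 1.56 and 2.28 CPM in control tumors (log2 fold change 1.20 ± 0.51, SE). Relative to Cd3e, Foxp3 was lower in dual-treated tumors, at 0.155 and 0.0878 against 0.343 and 0.288 in control tumors. Relative to Cd4 it was 0.360 and 0.377 against 0.547 and 0.867, and Cd8a per Foxp3 was 6.09 and 13.4 against 3.62 and 2.93. With 2 libraries a group, an exact permutation test of such a ratio cannot give a two-sided p below 0.333, so these ratios are descriptions. Tnfrsf9, which encodes the costimulatory receptor 4-1BB of activated regulatory and killer T cells, had 74.1 and 34.0 CPM in dual-treated tumors and 15.5 and 11.4 CPM in control tumors.

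Cytotoxic effector genes had a median log2 fold change of 2.76, which was 2.23 without dual-treated library A and 2.41 without control library A. All 24 tested members had positive fold changes, and 22 of 24 lay above both control libraries, against 18.8% of all genes. An unadjusted p under 0.05 in the edgeR fit was found for 20, against 4.22%. The 4-library fit called 12 of 24 higher, against 0.941% of all genes, and DESeq2 on 20 libraries called 4, against 0.174%. Perforin, encoded by Prf1, forms the pores through which granzymes enter target cells: it had 86.6 and 42.3 CPM in dual-treated tumors, against 2.78 and 6.24 CPM in control tumors. The log2 fold change was 3.84 ± 0.93 (SE), with an adjusted p of 8.2e-04 in DESeq2 on 20 libraries, 0.0473 in the 4-library edgeR fit and 0.663 in the edgeR fit to 20 libraries. The granzyme genes Gzmb and Gzma showed the same order. Gzmb had 82.7 and 40.5 CPM in dual-treated tumors, against 3.07 and 5.02 CPM in control tumors, and Gzma had 17.5 and 8.24 CPM against 1.29 and 2.49 CPM. Gzmk had 8.28 and 5.92 CPM against 0.557 and 0.758 CPM. For all 4 genes the lower dual-treated library was above the higher control library.

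Interferon gamma itself was measured at low levels. Ifng had 4.08 and 11.4 CPM in dual-treated tumors and 0.557 and 0.428 CPM in control tumors, a log2 fold change of 3.97 ± 1.57 (SE). Its adjusted p was 0.0194 in the 4-library edgeR fit and 0.145 in DESeq2 on 20 libraries. Library B of the dual-treated group, which had more Ifng, also had the higher level of the interferon gamma response list, and library A had more perforin and granzyme B. Prf1 per Cd3e was 2.92 and 0.879 in dual-treated tumors against 0.610 and 0.789 in control tumors, so in library B it was near the control range. Gzmb per Cd3e was 2.79 and 0.841 against 0.673 and 0.634.

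The granzyme cluster Gzmc to Gzmg separated the dual-treated libraries from each other. The summed level of these 5 neighboring genes, which share sequence and hence reads, was 1420 CPM in dual-treated library A and 59.5 CPM in library B, against 3.57 and 46.7 CPM in control libraries A and B. Gzmf had 429 and 17.4 CPM in dual-treated tumors and 0.162 and 8.91 CPM in control tumors. The log2 fold change of Gzmf, 5.62 ± 1.90 (SE), was 1.98 without dual-treated library A, and that of Gzmc was 3.16 with and 0.31 without that library. In the 4-library edgeR fit Gzmf had an adjusted p of 0.732.

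Checkpoint genes were higher as well. All 17 tested members of the checkpoint and exhaustion list had both dual-treated libraries above both control libraries, against 18.8% of all genes. The median log2 fold change was 2.21, and 8 were called higher in the 4-library fit, against 0.941%. None was called by DESeq2 on 20 libraries. Pdcd1, which encodes the target of the anti-PD-1 antibody, had 22.1 and 32.2 CPM in dual-treated tumors, against 3.72 and 4.26 CPM in control tumors (log2 fold change 2.77 ± 1.35, SE). Ctla4, the other target, had 7.19 and 3.58 CPM against 1.29 and 1.03 CPM (log2 fold change 2.21 ± 0.75, SE). Icos, a costimulatory receptor of activated T cells, had 10.4 and 7.72 CPM against 1.78 and 1.61 CPM, and the inhibitory receptor gene Lag3 had 11.6 and 21.4 CPM against 2.28 and 3.50 CPM. Per Cd3e, Pdcd1 was at 0.744 and 0.670 in dual-treated tumors and 0.815 and 0.538 in control tumors, and Lag3 was at 0.389 and 0.445 against 0.500 and 0.442. These 2 ratios overlapped between groups, so relative to Cd3e no difference in Pdcd1 or Lag3 was detected in these 4 libraries. Tigit per Cd3e did not overlap and was lower in dual-treated tumors, at 0.297 and 0.257 against 0.429 and 0.322 in control tumors.

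The ligands of both receptors differed from each other. Cd274, which encodes PD-L1, had 103 and 80.1 CPM in dual-treated tumors, against 17.7 and 10.7 CPM in control tumors, a log2 fold change of 2.69 ± 1.02 (SE). Its adjusted p was 0.0096 in the 4-library edgeR fit and 0.221 in DESeq2 on 20 libraries. Pdcd1lg2, which encodes PD-L2, had 5.83 and 4.23 CPM against 0.539 and 0.292 CPM (log2 fold change 3.59 ± 1.31, SE). Of the ligands of CD28 and CTLA-4, Cd86 had 46.6 and 43.9 CPM in dual-treated tumors and 20.5 and 24.3 CPM in control tumors. Cd80 had 12.1 and 11.9 CPM in dual-treated tumors, within the control values of 7.02 and 13.5 CPM. The receptor gene Cd28 had 9.03 and 8.73 CPM against 1.97 and 1.34 CPM. Of the 12 ligands and partners tested, 8 lay above both control libraries, against 18.8% of all genes. The 4-library fit called 5 higher, against 0.941%, while DESeq2 on 20 libraries called 0.

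**Figure D3:**
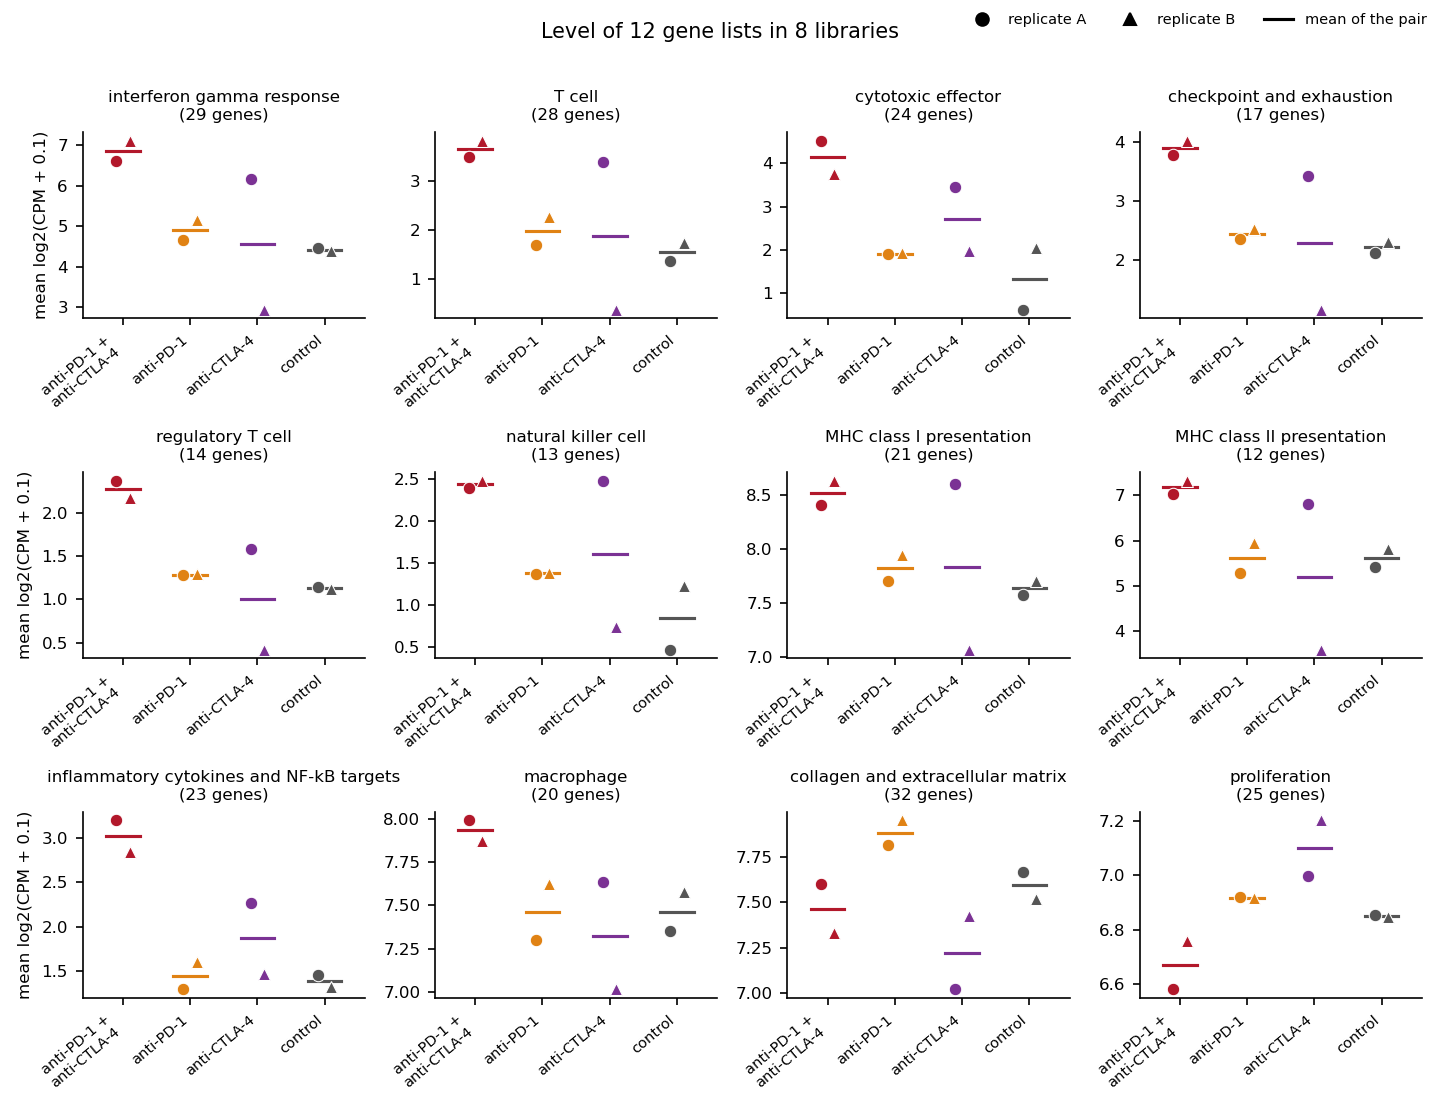
Mean log2(CPM + 0.1) of the tested members of each gene list in each library of the dual-treated, anti-PD-1, anti-CTLA-4 and control groups, with replicate A as circles, B as triangles and the mean of each pair as a bar. The vertical axes differ between panels and do not start at 0. The dual-treated pair lies at 3.50 and 3.82 on the T cell list, the control pair at 1.37 and 1.74, and the anti-CTLA-4 libraries lie far apart at 3.38 and 0.37.

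The T cell receptor beta variable (Trbv) segments showed more counts and more segments in use in dual-treated tumors. They summed to 362 and 586 counts in dual-treated libraries, against 86 and 115 counts in control libraries, with 22 and 16 of 35 segments having any count against 12 and 11. The alpha variable segments summed to 393 and 401 counts against 77 and 58. Each library had a different leading Trbv segment. In dual-treated tumors these were Trbv13-2 in library A, with 29.8% of Trbv counts (95% Wilson interval 25.4 to 34.7), and Trbv19 in library B, with 28.5% (24.99 to 32.3). In control tumors they were Trbv13-1 in library A, with 50% (39.7 to 60.3), and Trbv14 in library B, with 43.5% (34.8 to 52.6). The 3 leading segments held 54.7% and 56.0% of Trbv counts in dual-treated tumors and 70.9% and 68.7% in control tumors. Intervals cover counting error only, and library totals this low allow few segments to be seen in control tumors.

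Trbv13-3 made up 10.8% (8.0 to 14.4) and 14.2% (11.6 to 17.2) of Trbv counts in dual-treated tumors, against 2.33% (0.64 to 8.09) and 3.48% (1.36 to 8.60) in control tumors. These shares rest on 39 and 83 counts in dual-treated tumors and on 2 and 4 counts in control tumors. Its level was 0.920 and 1.44 CPM in dual-treated tumors against 0.0359 and 0.0778 CPM in control tumors, a log2 fold change of 4.33 ± 1.58 (SE) with an adjusted p of 0.0211 in the 4-library edgeR fit. Trbv13-3 is close in sequence to Trbv13-1 and Trbv13-2, between which reads may be split, and with those 2 left out of the total its share was 16.3% and 14.8% against 5.41% and 3.70%. The order of the groups was the same in both calculations. Trbv13-3 was not the only segment with this order. Trbv2 had 3.04% and 13.3% in dual-treated tumors against 0% and 2.61% in control tumors, and Trbv19 had 11.6% and 28.5% against 3.49% and 11.3%. Trbv1 had the reverse order, at 2.76% and 6.66% against 13.95% and 13.91%.

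**Figure D4:**
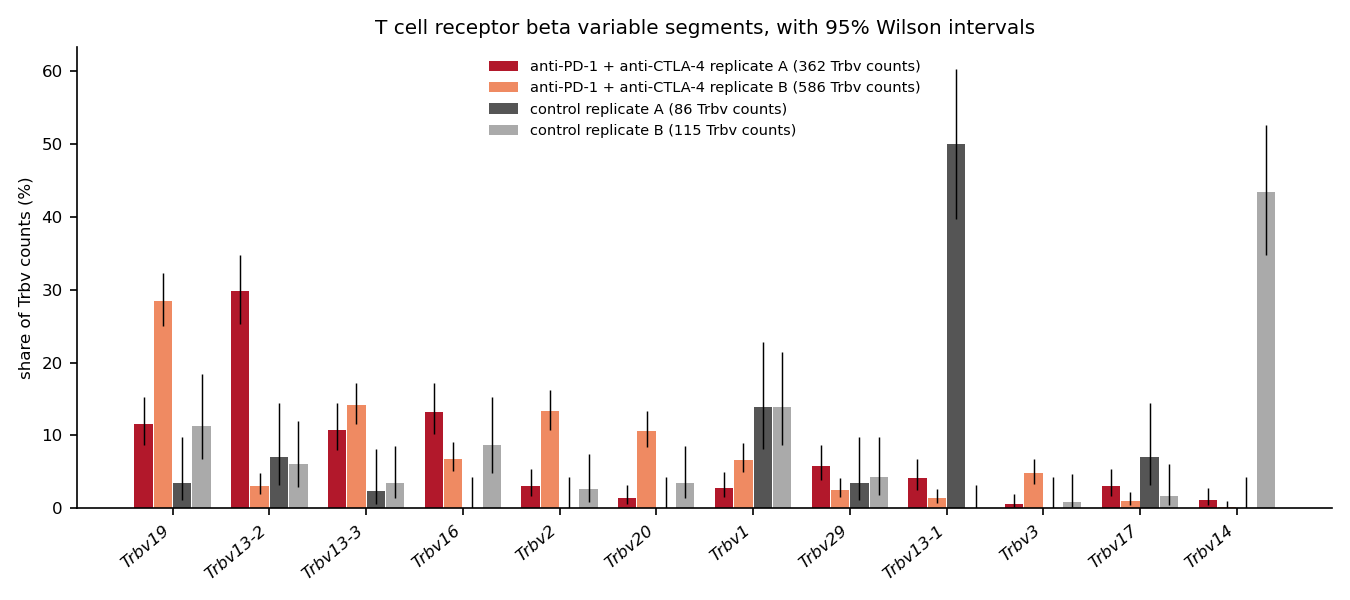
Share of T cell receptor beta variable segments in the summed Trbv counts of a library, in percent, for the 12 segments with the largest share in any of the 4 libraries. Bars are for dual-treated libraries A and B (reds) and control libraries A and B (greys), with 95% Wilson intervals. The leading segment differs in each library, and Trbv13-3 stands at 10.8% and 14.2% in dual-treated tumors against 2.33% and 3.48% in control tumors.

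Natural killer cell genes were higher, with the defining marker close to the control range in 1 library. Ncr1, which encodes the receptor NKp46, had 5.38 and 4.12 CPM in dual-treated tumors and 1.44 and 3.60 CPM in control tumors. Of the 13 tested members, 12 lay above both control libraries, against 18.8% of all genes. The 4-library fit called 4 higher, against 0.941%, while DESeq2 on 20 libraries called 0, and the list median was 1.84. Klrc2, an activating receptor gene also used by killer T cells, had 7.15 and 10.9 CPM against 0.880 and 1.75 CPM. Il2rb, a subunit of the receptors for interleukins 2 and 15 on both cell types, had 67.9 and 83.8 CPM against 11.9 and 17 CPM. Genes of the Klra family share sequence, and their single levels are uncertain.

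B cell markers and immunoglobulin genes were described as separate lists. The B cell list had a median log2 fold change of 0.12, and 0 of 17 members had an unadjusted p under 0.05 in the edgeR fit. Above both control libraries lay 6 of 17, against 18.8% of all genes, and below both lay 2, against 20.3%. Cd79a and Ms4a1 were at 1.87 CPM or less in all 4 libraries. In the plasma cell and immunoglobulin list 10 of 18 members lay above both control libraries, against 18.8% of all genes, and 4 had an unadjusted p under 0.05 upward in the edgeR fit, against 4.22%. Its median was 1.54, and 0.95 without dual-treated library B. The 4-library fit called 3 of 17 members higher, against 0.941% of all genes, namely Jchain, Igha and Igkc. Jchain, which links the antibody units of secreted IgA and IgM, had 4.98 and 8.87 CPM in dual-treated tumors and 0.916 and 0.719 CPM in control tumors, with an adjusted p of 0.0147 in the 4-library edgeR fit. Igha, the constant region of IgA, had 13.0 and 25.8 CPM against 2.14 and 2.29 CPM. Igkc, the kappa light chain constant region, had 12.6 and 26.5 CPM against 3.72 and 2.59 CPM. Heavy chain variable segments summed to 189 and 350 counts in dual-treated tumors and 76 and 17 in control tumors, and kappa variable segments to 243 and 564 against 90 and 52. The lymph node stroma genes Ccl19 and Ccl21a were at 0.156 CPM or less in all 4 libraries.

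The macrophage list had a median log2 fold change of 0.29. Its mean log2 levels were 7.99 and 7.87 in dual-treated libraries A and B, which ranked 1 and 2 of the 20 libraries, against 7.35 and 7.58 in control tumors. Of 20 tested members, 9 lay above both control libraries, against 18.8% of all genes, and 0 below both, against 20.3%. In the 4-library fit 0 of 20 were called, where 0.941% of all genes were called higher. DESeq2 on 20 libraries called 1, against 0.174%. Csf1r, the receptor that macrophages need to survive, had 483 and 427 CPM in dual-treated tumors and 546 and 427 CPM in control tumors. Marco, a scavenger receptor gene of selected macrophages, had the largest fold change of the list, with 28.1 and 26.2 CPM in dual-treated tumors, against 0.305 and 1.91 CPM in control tumors. Its log2 fold change was 4.62 ± 1.28 (SE), with an adjusted p of 0.0042 in DESeq2 on 20 libraries and 0.104 in the 4-library edgeR fit. It was 3.86 without control library A and 6.48 without control library B.

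Among inflammatory cytokines and NF-kB targets, 18 of 23 tested genes lay above both control libraries, against 18.8% of all genes. Below both lay 1, against 20.3%. An unadjusted p under 0.05 upward in the edgeR fit was found for 11, against 4.22%, and DESeq2 on 20 libraries called 6 higher, against 0.174%. Saa3, an acute phase protein made by macrophages and stromal cells, had the largest fold change of the list: 19.2 and 39.1 CPM in dual-treated tumors, against 0.610 and 0.311 CPM in control tumors. Its log2 fold change was 5.97 ± 1.45 (SE), with an adjusted p of 0.0073 in the 4-library edgeR fit. Acod1, which makes the antimicrobial metabolite itaconate, had 55.1 and 96.1 CPM against 7.24 and 5.27 CPM. The cationic amino acid transporter gene Slc7a2 had 36.1 and 13.5 CPM against 3.05 and 1.56 CPM, and Clec4e, a receptor for mycobacterial glycolipids, had 24.7 and 30.0 CPM against 5.85 and 7.43 CPM. Tnf had 7.31 and 10.2 CPM against 3.03 and 4.49 CPM. None of these 5 genes overlapped between groups, and Ltb4r1, the leukotriene B4 receptor gene, had 7.31 and 6.68 CPM against 1.90 and 1.91 CPM.

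A second set of myeloid genes was high mainly in dual-treated library A. Mmp12, the macrophage elastase, had 91.8 and 5.99 CPM in dual-treated tumors and 3.11 and 1.15 CPM in control tumors. Arg1, which degrades arginine, had 523 and 106 CPM against 34.97 and 26.7 CPM, and the neutrophil chemoattractant gene Cxcl2 had 7.15 and 0.346 CPM against 0.144 and 0.331 CPM. Without dual-treated library A, the log2 fold changes were 1.52 for Mmp12, 1.81 for Arg1 and 0.58 for Cxcl2, against 4.52, 3.35 and 3.97 with it. Library A also had the highest level of hypoxia and glycolysis genes of all 20 libraries, 7.83, with 6.56 in library B, against 7.05 and 6.19 in control tumors. The part of that difference in the values of Mmp12, Arg1 and Cxcl2 was not tested.

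Neutrophil and dendritic cell genes gave a mixed picture. The neutrophil list had 6 positive and 7 negative fold changes among 13 tested members, with mean log2 levels of 1.05 and 0.91 in dual-treated tumors and 0.022 and 0.94 in control tumors. S100a8 had 2.08 and 1.04 CPM in dual-treated tumors against 0.0359 and 1.03 CPM in control tumors. Clec4d, a C-type lectin of neutrophils and macrophages, had 83.8 and 42.6 CPM against 7.67 and 16.4 CPM, with an adjusted p of 6.3e-05 in DESeq2 on 20 libraries and 0.117 in the 4-library edgeR fit. Markers of the conventional dendritic cells that cross-present antigen to CD8+ T cells were higher: Clec9a had 4.48 and 9.25 CPM in dual-treated tumors, against 1.17 and 1.52 CPM in control tumors, and Xcr1 had 7.55 and 13.3 CPM against 3.39 and 3.50 CPM. Of the 18 dendritic cell genes, 11 lay above both control libraries, against 18.8% of all genes, and 2 below, against 20.3%. Clec9a was the 1 called in the 4-library fit, where 0.941% of all genes were called higher.

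Chemokine genes had a median log2 fold change of 1.17 over 28 tested members, which was also 1.17 with Cxcl3, a member with no count in control tumors, set at its lower bound. Both dual-treated libraries lay above both control libraries for 16 of 28, against 18.8% of all genes, and 0 lay below, against 20.3%. Besides the CXCR3 ligands, Ccl4, a chemokine made by activated T cells and macrophages, had 5.52 and 13.2 CPM in dual-treated tumors and 1.71 and 2.43 CPM in control tumors. Cxcl1 had 4.62 and 1.96 CPM against 0.987 and 0.914 CPM, with an adjusted p of 0.0084 in DESeq2 on 20 libraries and 0.143 in the 4-library edgeR fit. Its log2 fold change was 1.79, and 1.07 without dual-treated library A.

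The median log2 fold change was 0.03 for epithelial and tumor keratinocyte genes, -0.04 for fibroblast and mural cell genes and 0.27 for endothelial genes. Krt18 had 832 and 641 CPM in dual-treated tumors, against 1005 and 1176 CPM in control tumors, and Krt8 likewise did not overlap. The log2 fold changes were -0.57 ± 0.35 (SE) for Krt18 and -0.42 ± 0.24 (SE) for Krt8, with adjusted p of 0.923 and 0.912 in the edgeR fit to 20 libraries. Of 25 proliferation genes 22 had negative fold changes and 12 lay below both control libraries, against 20.3% of all genes, and 0 had an unadjusted p under 0.05 in the edgeR fit. The mitotic checkpoint gene Bub1b had 73.0 and 79.1 CPM in dual-treated tumors and 112 and 92.2 CPM in control tumors. Cdc20, which activates the anaphase-promoting complex, had 58.9 and 71.9 CPM against 78.8 and 87.4 CPM.

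Of 32 tested collagen and matrix genes 24 had negative fold changes. Both dual-treated libraries lay below both control libraries for 12 of 32, against 20.3% of all genes, and above for 4 of 32, against 18.8%. In all, 1 member had an unadjusted p under 0.05 downward in the edgeR fit, against 1.82% of all genes, and the direction of the list turned without dual-treated library B. That gene, Col14a1, a collagen that binds the surface of fibrils, had 31.8 and 21.1 CPM in dual-treated tumors, against 76.8 and 52.5 CPM in control tumors (log2 fold change -1.29 ± 0.44, SE). Col3a1 had 1750 and 1447 CPM against 2376 and 2008 CPM, while Col1a1, the main chain of type I collagen, had 1126 and 1013 CPM against 1123 and 1099 CPM. The endothelial marker Pecam1 had 91.9 and 62.1 CPM in dual-treated tumors and 51.5 and 67.8 CPM in control tumors.

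Targets of p53 and regulators of apoptosis had a median log2 fold change of -0.26, with 12 of 21 below both control libraries, against 20.3% of all genes, and 5 of 21 above, against 18.8%. Fas, a death receptor gene that interferon gamma can induce, had 10.4 and 16.2 CPM in dual-treated tumors and 6.50 and 7.76 CPM in control tumors. Immediate early genes had a median log2 fold change of 0.35, and 0.059 without dual-treated library A. Of 19 tested members, 13 had positive and 6 negative fold changes. Both dual-treated libraries lay above both control libraries for 8, against 18.8% of all genes, and below for 2, against 20.3%. Egr1 went against the list median, with 81.2 and 71.5 CPM in dual-treated tumors and 104 and 166 CPM in control tumors. Its log2 fold change was -0.82 ± 0.20 (SE), with an adjusted p of 0.0239 in DESeq2 on 20 libraries and 0.663 in the edgeR fit to 20 libraries. Hypoxia and glycolysis genes had 18 of 18 positive fold changes with a median of 0.69, which was -0.09 without dual-treated library A. Both dual-treated libraries lay above both control libraries for 3 of 18, near the 18.8% of all genes.

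The gene with the lowest p in the comparison and a cell surface gene with one of the largest fold changes were looked at after their values were seen. Cfp, which encodes properdin, a stabilizer of the alternative complement pathway, had 154 and 155 CPM in dual-treated tumors, against 91.2 and 91.4 CPM in control tumors, a log2 fold change of 0.76 ± 0.12 (SE). Its adjusted p was 0.355 in the edgeR fit to 20 libraries, 8.5e-08 in DESeq2 on 20 libraries and 0.0529 in the 4-library edgeR fit. Ly6a, the interferon-inducible stem cell antigen Sca-1, had 249.5 and 532 CPM against 13.8 and 19.7 CPM, a log2 fold change of 4.54 ± 1.45 (SE). The 1 gene called lower by DESeq2 on 20 libraries was Ott, which had 0 counts in both dual-treated libraries and 2.84 and 4.49 CPM in control tumors. Taking 3 counts over the dual-treated group as the floor, it was at least 121-fold lower.

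The dual-treated tumors were next set against each single agent, which asks what the second antibody added. Against anti-PD-1 alone edgeR on 20 libraries called 0 genes, with 548 genes (2.80%) higher and 240 lower at an unadjusted p under 0.05. DESeq2 on 20 libraries called 11 genes higher and 2 lower. The T cell genes had mean log2 levels of 3.50 and 3.82 in dual-treated tumors and 1.68 and 2.27 in anti-PD-1 tumors, and interferon gamma response genes 6.60 and 7.11 against 4.67 and 5.16. Neither list overlapped. The list medians over anti-PD-1 were 1.90 for both T cell and interferon gamma response genes, with 7 of 28 and 11 of 29 members at an unadjusted p under 0.05. Prf1 had 86.6 and 42.3 CPM in dual-treated tumors against 7.19 and 6.94 CPM in anti-PD-1 tumors, and Nos2 had 71.0 and 28.7 CPM against 3.26 and 4.06 CPM.

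The anti-CTLA-4 libraries differed widely from each other. Against anti-CTLA-4 alone, edgeR on 20 libraries called 1 gene higher (0.00511%), with 956 genes (4.89%) higher and 1247 lower at an unadjusted p under 0.05. T cell genes were at 3.50 and 3.82 in dual-treated tumors and at 3.38 and 0.37 in anti-CTLA-4 libraries A and B, and interferon gamma response genes at 6.60 and 7.11 against 6.18 and 2.95. Cd3e had 29.7 and 48.1 CPM in dual-treated tumors and 32.5 and 1.03 CPM in anti-CTLA-4 tumors, so library A of the single agent overlapped the dual-treated pair. The called gene, Gm43802, had 8.92 and 10.4 CPM in dual-treated tumors and 0 counts in both anti-CTLA-4 libraries, which is at least 342-fold higher against a floor of 3 counts over the group (adjusted p of 0.0185 from edgeR). It had 4.18 and 2.45 CPM in control tumors. Without anti-CTLA-4 library A 7 genes were called, and without library B 0.

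In CPM, Foxp3 separated the dual-treated from the anti-CTLA-4 libraries more clearly than the T cell genes did. It had 4.60 and 4.23 CPM in dual-treated tumors and 0.841 and 0.551 CPM in anti-CTLA-4 tumors, with both anti-CTLA-4 libraries below the control values of 1.56 and 2.28 CPM. Relative to Cd3e the groups overlapped, with Foxp3 at 0.155 and 0.0878 in dual-treated libraries A and B and at 0.0259 and 0.5345 in anti-CTLA-4 libraries A and B. Ctla4 had 7.19 and 3.58 CPM in dual-treated tumors and 1.58 and 0.267 CPM in anti-CTLA-4 tumors. Nos2 had 71.0 and 28.7 CPM against 6.50 and 1.78 CPM. The dual-treated CPM values lay above both single-agent pairs for these 3 genes.

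Whether the pair of antibodies differed from the sum of the single agents was tested with the interaction term, on the log scale. edgeR on 20 libraries called 0 genes, with 292 genes (1.49%) positive and 289 negative at an unadjusted p under 0.05, and DESeq2 on 20 libraries called 2 in each direction. Foxp3 was among the 5 genes of smallest p on the positive side, with an interaction of 2.75 ± 0.73 (SE) and an adjusted p of 1 from edgeR. The others were Gm43802, Fam19a5, Gm10552 and Acox3, of which the secreted protein gene Fam19a5 had 4.36 and 4.19 CPM in dual-treated tumors, 1.72 and 2.10 CPM in anti-PD-1 tumors, 1.72 and 1.53 CPM in anti-CTLA-4 tumors and 3.52 and 2.96 CPM in control tumors. On the negative side they were Twnk, Gm20518, Ifrd2, Ankrd61 and 9430015G10Rik. Twnk, the mitochondrial DNA helicase, had 20.1 and 22.1 CPM in dual-treated tumors, 27.7 and 27.1 CPM in anti-PD-1 tumors, 30.7 and 36.7 CPM in anti-CTLA-4 tumors and 28.1 and 29.7 CPM in control tumors. The median interaction was 0.60 for T cell genes and 0.86 for interferon gamma response genes. Of their members 0 of 28 and 1 of 29 were positive at an unadjusted p under 0.05, against 1.49% of all genes. Such counts were 6 of 18 for hypoxia and glycolysis, 3 of 13 for neutrophil, 3 of 18 for dendritic cell, 3 of 17 for checkpoint and 2 of 14 for regulatory T cell genes. They were 0 for macrophage genes and both MHC lists. The term rests in part on the anti-CTLA-4 libraries, which differed widely from each other.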

How the data were processed

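Bulk RNA-seq was measured in 20 libraries of SCCVII tumors, 2 in each of 10 groups. Per the submitters' processing notes, the authors trimmed reads with Trimmomatic 0.39, checked them with FastQC and quantified them with Salmon 1.5.0 on GRCm39 (the methods name another Salmon version), and the deposited values are expected counts (estimated counts) per gene. A deposited table of the authors' normalized log2 values was not used. The expected counts were rounded to whole numbers, and 51484 of 54309 gene IDs were paired with a symbol.

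Groups were taken from the treatment labels. edgeR 4.0.16 (R 4.3.3, limma 3.58.1) was fitted to all 20 libraries with TMM factors, filterByExpr (count minimum 10, total minimum 15) and the robust quasi-likelihood test. Calls required both a log2 fold change beyond 2 in either direction and, after Benjamini-Hochberg adjustment, p below 0.05. The tested contrasts were dual against control, against each single agent, and the interaction. The fit to 20 libraries had 10 residual degrees of freedom, and the fit to the 4 compared libraries had 2. Library depth is given in the report, and CPM used TMM-scaled totals. A list's level is the mean log2(CPM + 0.1) of its tested members. DESeq2 1.42.0, other filters and factors, a replicate block, fits to the compared groups alone and fits leaving out each library were alternatives. Scripts were tested on simulated data. Python 3.11.15, pandas 2.3.3 and matplotlib 3.10.9 were used for summaries, promoters and plots. Floors used 3 counts, and 95% Wilson intervals were used for segment shares.

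The members and lists were chosen with earlier results of these data known. Named genes were those called by edgeR, 8 genes that the study's text names (Trbv13-3, Gzma, Gzmb, Prf1, Slc7a2, Acod1, Mmp12, Ltb4r1), the antibody targets and partners, fixed cell type markers, up to 5 members of smallest p in each list, and the 5 of smallest p in each direction of the interaction. Other genes named in the text, among them Cxcl9, Cxcl10, Irf1, Gbp5, Igtp, Gzmk, Gzmc to Gzmg, Lag3, Ly6a, Cfp, Arg1, H2-Ab1, H2-Eb1, Cd74, Ott and Krt8, were chosen after their values were seen.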

Additional observations from a re-analysis of the deposited data

How the results depend on the processing

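Against control, 0 genes were called by edgeR on 20 libraries and 35 by DESeq2 on the same libraries. On the 4 compared libraries alone edgeR called 168 and DESeq2 264. Leaving out 1 of the 4 libraries gave 0 to 1 calls, the 1 being Pde2a without control library A. Against anti-PD-1, the counts were 0 by edgeR, 13 by DESeq2 on 20 libraries, and 59 by edgeR and 162 by DESeq2 on the compared groups alone. Against anti-CTLA-4, edgeR called 1 gene (Gm43802) and DESeq2 15, against 0 by edgeR and 22 by DESeq2 on the compared groups alone. It called 0 genes with the APG-157 + anti-CTLA-4 group left out and 0 to 7 when 1 library was left out, with 0 without either dual-treated library or anti-CTLA-4 library B and 7 without anti-CTLA-4 library A. For the interaction, edgeR called 0, DESeq2 4 on 20 libraries and 13 on the compared groups, and leaving out 1 library gave 0 to 1, the 1 being Pde2a without control library A. Relaxing the fold minimum to 1 on the log2 scale or dropping it, median-ratio factors, other low-count filters and the replicate block left all 4 edgeR counts as they were.

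No named gene was called against control by edgeR on 20 libraries, so none could lose a call in an alternative. Of 1367 comparisons of 106 named genes with an alternative, 1253 kept their direction and stayed uncalled. In 106 the threshold was passed in the alternative only, and 8 turned direction. All 8 came from leaving out 1 library, over which the log2 fold change spanned -0.28 to 0.18 for Adgre1 (highest without control library A), -0.47 to 0.77 for Cd79a (-0.47 without dual-treated library B, -0.036 without control library A), -0.13 to 0.79 for Cd80 (lowest without control library A), -0.10 to 0.041 for Col1a1 (highest without dual-treated library B), -0.25 to 0.12 for Csf1r (0.012 without dual-treated library B, 0.12 without control library A) and -1.16 to 0.012 for Ms4a1 (highest without control library A). The causes were not tested. The labels do not say that a replicate letter marks a shared animal or batch, and only 1 pair of groups was checked: the A minus B differences of the dual-treated and control groups had a correlation of 0.18 across 19567 genes, and the replicate block gave 0 calls against control.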
